A study of Mus musculus with 6 samples.

Results

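Genes of the sphingosine 1-phosphate (S1P) pathway were examined in sorted kidney endothelial cells (ECs). They were 10 rows of the 55401 in the deposited count table, those named S1pr1, S1pr2, S1pr3, Sphk1, Sphk2, Spns2, Sgpl1, Plpp1, Plpp3 and Apom. The rule used gene names and no measured value. ECs were sorted as CD31+CD45- cells from kidneys of 3 RbpjΔEC mice (labelled RbpjDEC, genotype Cre +/-; Rbpjf/f) and 3 Cre-negative littermates (CTRL, genotype Cre -/-; Rbpjf/f). All mice carried the floxed alleles of Rbpj, which encodes the nuclear effector of Notch receptors, and both groups received 5 doses of 1.5 mg tamoxifen at 8 weeks of age. The mice were male, organs were taken 12 weeks after induction, and the labels give an age of 21 weeks. Cre was driven by the endothelial Cdh5 promoter, so the deletion was aimed at all ECs, those of lymph vessels included. Each library came from 1 mouse.

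S1P is a lipid messenger made inside cells when the sphingosine kinases Sphk1 and Sphk2 phosphorylate sphingosine. ECs export it through the transporter Spns2, it travels in plasma bound to apolipoprotein M (Apom) on high-density lipoprotein and to albumin, and it acts on G protein-coupled receptors, of which S1pr1, S1pr2 and S1pr3 are those best known in vessels. S1pr1 tightens endothelial junctions, and it guides lymphocytes out of lymphoid organs along an S1P gradient. The lyase Sgpl1 destroys S1P inside cells, and the lipid phosphatases Plpp1 and Plpp3 remove the phosphate of S1P and lysophosphatidic acid at the cell surface.

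The total counts on genes lay between 39649171 and 47726850 per library. Values are given per 1000000 counts of a library (CPM) after TMM scaling, and 3 counts, the floor used here, came to between 0.0634 and 0.0749 CPM. Rbpj had 29.2 ± 0.964 CPM in CTRL against 28.2 ± 1.86 CPM in RbpjΔEC (SD, n = 3 each), and since the counts cover the whole gene they do not check the deletion. Hey1, a Notch target, had 19.7 ± 2.93 CPM in CTRL against 11.7 ± 2.83 CPM in RbpjΔEC (SD, n = 3 each). The groups did not overlap for Hey1, and its log2 fold change was -0.76. The 8 pan-endothelial markers, Pecam1 and Cdh5 among them, summed to between 16810 and 18830 CPM in CTRL and between 15250 and 15640 CPM in RbpjΔEC. Of the 7 lymphocyte markers Cd3e and Cd3d had 0 counts in all 6 libraries, whereas Ptprc, which encodes CD45, had 55 to 157 counts in CTRL and 24 to 64 in RbpjΔEC. The sum of the 8 mural markers was between 85.1 and 111.6 CPM in CTRL and between 35.0 and 56.5 CPM in RbpjΔEC. In these bulk samples, fewer cells of a type and less RNA per cell cannot be told apart.

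Promoter windows of 8 of the 10 genes were found in RefSeq (GRCm38.p6), each with 250 bases before and 50 bases from a start site on. S1pr1 and Plpp1 are not among the 8. The windows were searched on both strands for TGGGAA, the core of the Rbpj binding motif, because Rbpj is the gene deleted here. Of the 13 windows of these genes, 2 held it, 1 of S1pr3 and 1 of the 5 of Sphk1, while 25.6% of all 32851 windows in the table did. The stretches of 30 bases around these matches are shown first, with the motif in capitals, followed by the 250 bases before the start of S1pr3 and of S1pr2, the receptor genes with the largest estimates in either direction. All 4 are written 5′ to 3′ on the strand of the gene.
S1pr3, chr13:51408619-51408648, plus strand: cggggacgtggcTGGGAAccagggcgtatc
Sphk1, chr11:116531611-116531640, plus strand: aggggtgtaaggTGGGAAgccggggatggg
S1pr3, chr13:51408368-51408617, plus strand: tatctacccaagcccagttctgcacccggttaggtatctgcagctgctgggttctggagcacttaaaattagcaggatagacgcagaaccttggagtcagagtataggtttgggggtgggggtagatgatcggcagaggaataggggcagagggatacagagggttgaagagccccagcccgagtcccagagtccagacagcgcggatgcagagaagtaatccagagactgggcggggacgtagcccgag
S1pr2, chr9:20976794-20977043, minus strand: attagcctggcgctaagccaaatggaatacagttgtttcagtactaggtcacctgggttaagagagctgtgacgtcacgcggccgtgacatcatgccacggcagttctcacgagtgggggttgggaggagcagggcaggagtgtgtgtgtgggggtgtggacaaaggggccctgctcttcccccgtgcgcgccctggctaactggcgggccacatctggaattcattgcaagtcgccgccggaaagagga
In S1pr3 the motif began at base 14 of the RefSeq transcript, counted from 1 at its start site, which need not be the start given by GENCODE. In Sphk1 the motif began 214 bases before the start site to which that window belongs. The window of S1pr2 held no match on either strand.

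The surface phosphatase genes and S1pr1 had far higher levels than the other pathway genes in kidney ECs of both groups. Per kb of exonic length, Plpp3 had 627.7 ± 69.2 CPM (SD, n = 3) in CTRL, Plpp1 had 583.6 ± 42.9 and S1pr1 had 147.6 ± 21.3. All 3 lay above the 99th percentile of the tested genes on this scale (99.9, 99.9 and 99.1). The exporter Spns2 had 15.7 ± 1.13 CPM per kb (SD, n = 3), Sphk2 had 6.24 ± 0.725 and Sgpl1 had 4.20 ± 0.228. At the lower end S1pr3 had 0.779 ± 0.129 CPM per kb (SD, n = 3), S1pr2 had 0.760 ± 0.0186, Apom had 0.359 ± 0.117 and Sphk1 had 0.0933 ± 0.0611. The order of the neighbours Plpp3 and Plpp1, and that of S1pr3 and S1pr2, was within the spread of the CTRL libraries, while the other neighbours did not overlap. In RbpjΔEC the order from Plpp3 to Sgpl1 was the same, and S1pr3, with 0.394 ± 0.231 CPM per kb (SD, n = 3), lay below S1pr2 with 0.934 ± 0.176. Its mean was also below that of Apom (0.599 ± 0.406), although these overlapped.

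**Figure D1:**
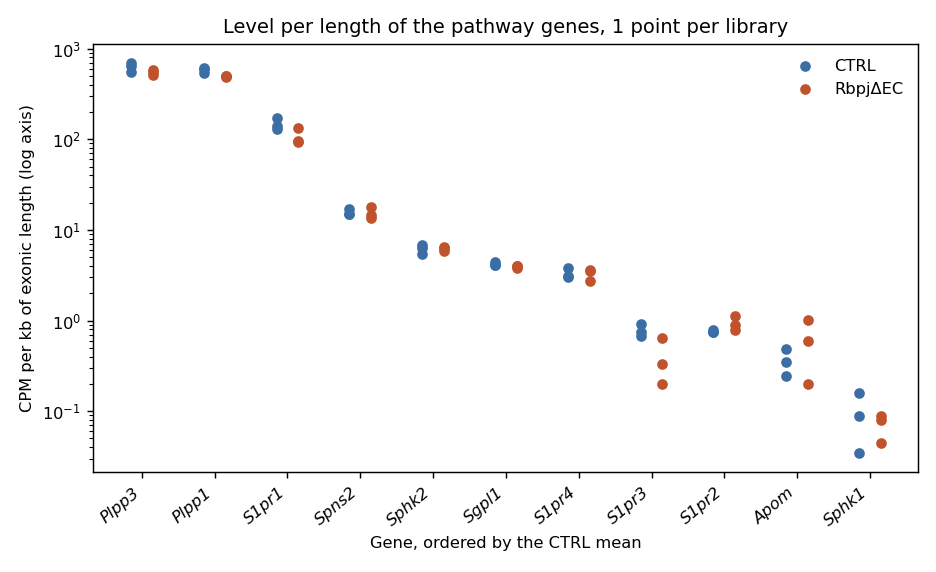
Level of each pathway gene and of the related receptor gene S1pr4 in CPM per kb of exonic length (log axis), 1 point per library, with CTRL in blue and RbpjΔEC in orange and genes ordered by the CTRL mean. Plpp3, Plpp1 and S1pr1 stand above 90 CPM per kb in every library, and Sphk1 lies below 0.2 CPM per kb in all of them.

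Of the 10 genes, 0 passed an adjusted p of 0.05 in the edgeR quasi-likelihood (QL) test, adjusted by Benjamini-Hochberg over all tested genes, which 1.13% of the 18438 tested genes did (0.575% higher and 0.559% lower in RbpjΔEC). All 10 passed the filter on low counts. At an unadjusted p under 0.05 in the same test, 3 were lower in RbpjΔEC (S1pr1, S1pr3 and Plpp1) and 0 higher, against 8.62% and 8.88% of all tested genes. In DESeq2's Wald test 1 of the 10, S1pr1, passed an adjusted p of 0.05, against 1.52% of all genes with a count. The Notch target Hey1 also missed the threshold in the edgeR QL test (Benjamini-Hochberg adjusted p = 0.0722). It passed in DESeq2's Wald test (adjusted p = 0.00285). Over 14 alternatives the adjusted p of Hey1 from edgeR or DESeq2 ranged from 9.26e-07, with no low-count filter, to 0.249. The log2 fold change was below 0 for 8 of the 10 genes and above 0 for S1pr2 and Apom, with a median of -0.15 beside 0.01 over all tested genes. The groups did not overlap for S1pr3, Sgpl1 and Plpp1, each lower in RbpjΔEC, and 11.6% of the tested genes had no overlap in this direction.

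**Figure D2:**
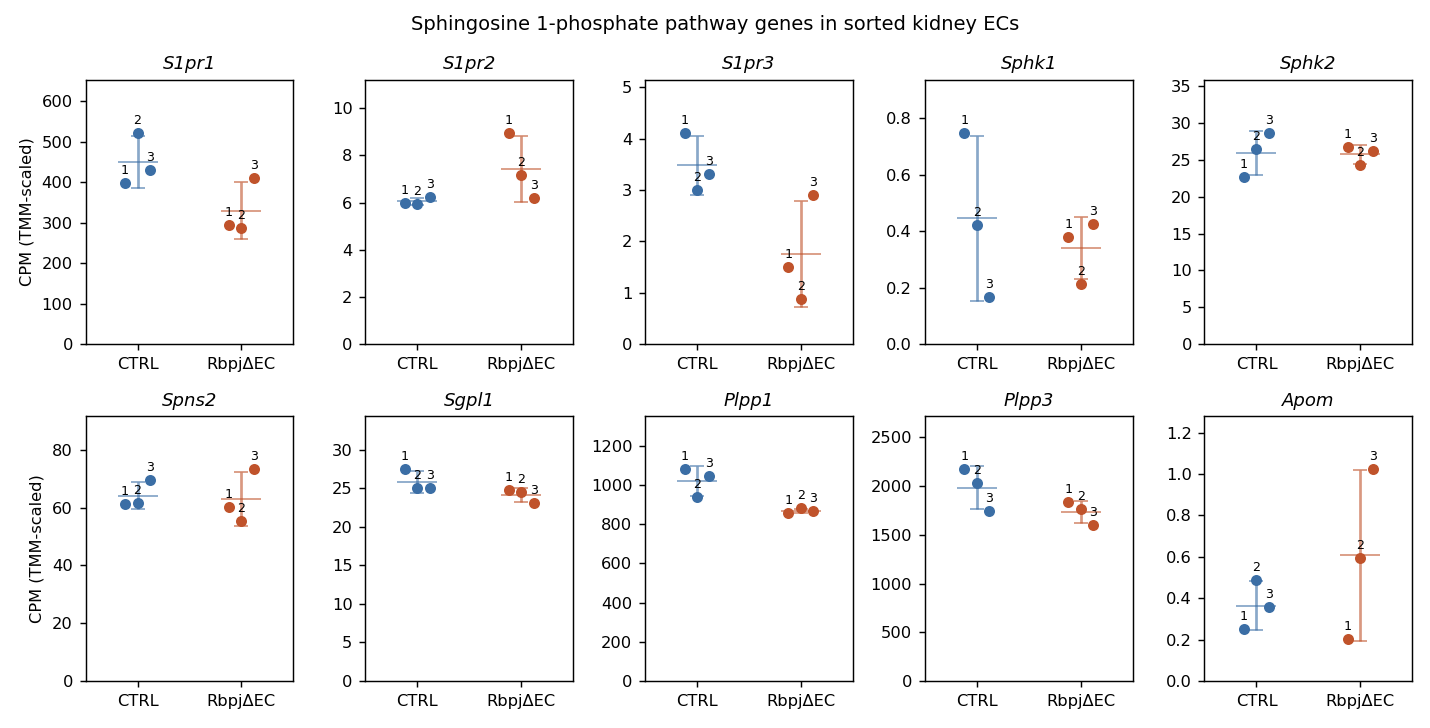
CPM of the 10 genes in each library (points, numbered by mouse within the group), with the mean and SD of each group (n = 3 each) and a separate axis from 0 for each gene. RbpjΔEC 3 lies above the other RbpjΔEC libraries for S1pr1 and S1pr3, and the Plpp1 values of RbpjΔEC are all below those of CTRL.

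S1pr1 (ENSMUSG00000045092.8, chromosome 3 of GRCm38, 115710433 to 115715072, minus strand) was the dominant S1P receptor gene. It had 397.5, 522.0 and 428.9 CPM in CTRL 1 to 3 against 293.0, 286.0 and 409.6 CPM in RbpjΔEC 1 to 3. RbpjΔEC 1 and 2 lay below every CTRL library, whereas RbpjΔEC 3 lay between CTRL 1 and CTRL 3, so the groups overlapped. For S1pr1 the log2 fold change was -0.45 (standard error 0.161, 95% interval -0.83 to -0.07), with a Benjamini-Hochberg adjusted p of 0.215 by edgeR QL and 0.0362 from DESeq2's Wald test. The call depended on the test, on the low-count filter and on RbpjΔEC 3. Without RbpjΔEC 3 the log2 fold change was -0.63 and the Benjamini-Hochberg adjusted p by edgeR QL was 0.0116. In that fit 521 genes passed over all genes, against 209 with all 6 libraries. Over all 14 alternatives the adjusted p of S1pr1 from edgeR or DESeq2 ranged from 0.000395, with no low-count filter, to 0.459. The spread between mice (coefficient of variation 14.4% in CTRL and 21.1% in RbpjΔEC) stood beside a counting error of 0.773%. The lncRNA gene Gm9889, which starts 78 bp away on the opposite strand, had 5.11 ± 0.643 CPM in CTRL against 5.02 ± 1.16 CPM in RbpjΔEC (SD, n = 3 each). The 7 markers of glomerular ECs, the fenestrated ECs of the filtration capillaries, were followed beside it. Their sum was 2090, 2579 and 2512 CPM in CTRL 1 to 3 against 1415, 1420 and 1827 CPM in RbpjΔEC 1 to 3. All 7 were lower in RbpjΔEC with no overlap of the groups, beside 11.6% of all tested genes. Of the 7, 4 passed an adjusted p of 0.05 in edgeR's test, beside 0.559% of all tested genes called lower. For both S1pr1 and this sum, CTRL 2 was the highest CTRL library and RbpjΔEC 3 the highest RbpjΔEC library. Of the single markers only Plat and Gata5 showed both features. Within CTRL, Ehd3 was highest in library 3, and Smad6 and Lpl in library 1. Within RbpjΔEC, Sema5a and Tbx3 were highest in library 1. The part of glomerular ECs in the S1pr1 values was not tested.

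S1pr3 (ENSMUSG00000067586.4, chromosome 13, 51408639 to 51422797, plus strand) is a receptor gene active in both smooth muscle cells and ECs. Its CPM were 4.12, 3.00 and 3.31 in CTRL 1 to 3 against 1.49, 0.882 and 2.89 in RbpjΔEC 1 to 3. Every RbpjΔEC library lay below every CTRL library, with RbpjΔEC 3 just below CTRL 2. The log2 fold change of -0.99 was the largest in size among the 10 genes (standard error 0.373, 95% interval -1.81 to -0.16, adjusted p = 0.205, edgeR QL with Benjamini-Hochberg). Without RbpjΔEC 3 it was -1.54 with an adjusted p of 0.0268 from the same edgeR test, and with no low-count filter it was -0.98 with an adjusted p of 0.0175 from edgeR. Its adjusted p from edgeR or DESeq2 reached 0.472 among the other alternatives. These libraries held 37 to 165 counts on S1pr3. In RbpjΔEC 2 the count of 37 had an exact 95% Poisson interval of 26.1 to 51.0, and in RbpjΔEC 3 the count of 116 had one of 95.9 to 139. Such intervals cover counting error only. The mural markers, genes of vascular smooth muscle and pericytes, summed to 111.6, 89.8 and 85.1 CPM in CTRL 1 to 3 against 44.9, 35.0 and 56.5 CPM in RbpjΔEC 1 to 3. All 8 had a log2 fold change below 0, and Acta2, Myh11 and Rgs5 passed an adjusted p of 0.05 in edgeR's test. Of all tested genes 0.559% were called lower. The order of the RbpjΔEC libraries, with 3 highest and 2 lowest, was the same for S1pr3 and for the mural sum, and in CTRL library 1 was highest in both. The summed markers of the distal nephron and collecting duct (398.5, 240.5 and 213.7 CPM in CTRL 1 to 3, and 104.5, 48.1 and 162.7 CPM in RbpjΔEC 1 to 3) shared these features. So did the summed erythroid and platelet markers, with 10.6 to 13.6 CPM in CTRL and 6.03 to 11.3 CPM in RbpjΔEC, and the summed stroma markers, with 2.94 to 4.24 and 0.977 to 1.77 CPM. The part of mural or other cells in the S1pr3 values was not tested. S1pr3 shares 45 exonic bp with the lncRNA gene Gm32834 on the opposite strand, which had 83 counts over all 6 libraries.

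S1pr2 (ENSMUSG00000043895.6, chromosome 9, 20962361 to 20976781, minus strand), whose receptor loosens endothelial junctions, had 5.99, 5.96 and 6.23 CPM in CTRL 1 to 3. In RbpjΔEC 1 to 3 it had 8.97, 7.15 and 6.21 CPM, with the third library inside the CTRL range. S1pr2 had a log2 fold change of 0.30 (95% interval -0.07 to 0.67, adjusted p = 0.388, edgeR QL with Benjamini-Hochberg). The estimate for S1pr2 was 0.14 without RbpjΔEC 1 and 0.51 when the libraries were scaled to the summed pan-endothelial markers, with an adjusted p from edgeR or DESeq2 between 0.0782 and 0.848 over all alternatives. RbpjΔEC 3 was thus the RbpjΔEC library nearest to CTRL for each of the 3 vascular receptor genes.

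S1pr4, known mainly from lymphocytes and other blood cells, had more signal per length than S1pr2 or S1pr3, with 3.31 ± 0.402 CPM per kb (SD, n = 3) in CTRL and 3.28 ± 0.491 in RbpjΔEC. Its CPM were 9.004, 7.25 and 7.46 in CTRL 1 to 3 against 8.65, 8.34 and 6.49 in RbpjΔEC 1 to 3, so the groups overlapped. Beside it, the 7 lymphocyte markers together had 1.94 to 4.81 CPM in CTRL and 0.870 to 2.17 CPM in RbpjΔEC. S1pr5, a receptor gene of natural killer cells and the brain, had 12, 9 and 0 counts in CTRL 1 to 3 against 0, 0 and 1 in RbpjΔEC 1 to 3 and was below the filter on low counts. Of the summed level per kb of the 5 receptor genes, S1pr1 held 96.7% ± 0.761 (SD, n = 3) in CTRL and 95.8% ± 1.08 (SD, n = 3) in RbpjΔEC. This difference of -0.940 percentage points was within the spread of the libraries (exact permutation test, two-sided, p = 0.3, where 3 libraries against 3 allow no p under 0.1).

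**Figure D3:**
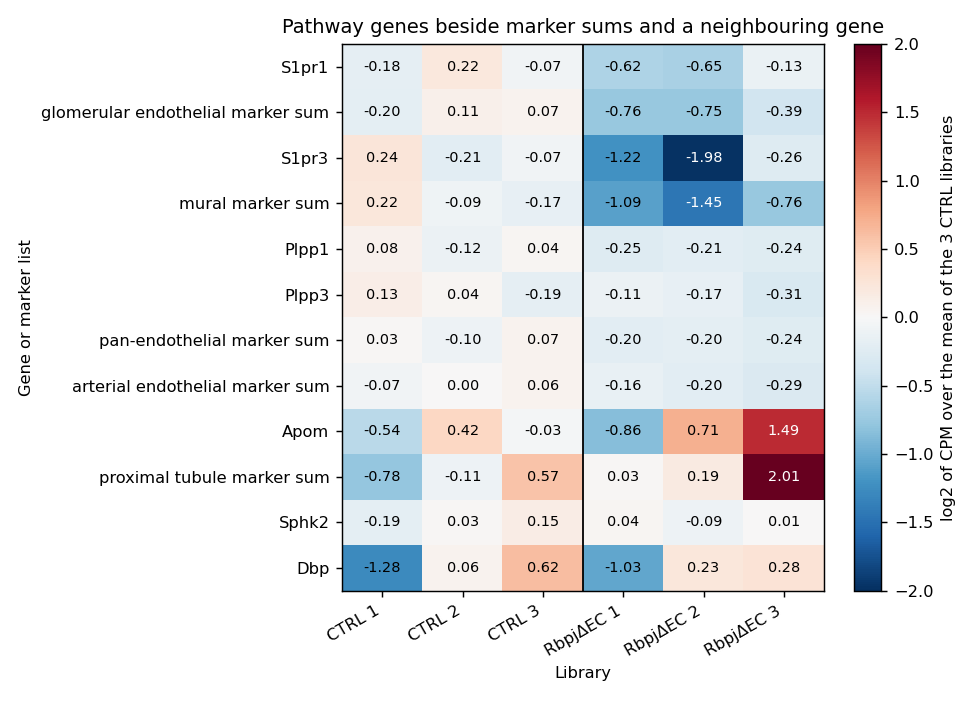
Log2 of the CPM over the mean of the 3 CTRL libraries, for single pathway genes, for the summed CPM of marker lists and for Dbp, a gene that overlaps Sphk2, with 1 column per library. S1pr3 stands at -1.22, -1.98 and -0.26 in RbpjΔEC 1 to 3 and the mural sum at -1.09, -1.45 and -0.76, while Plpp1 stays between -0.25 and -0.21 in these libraries.

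Both sphingosine kinases, the enzymes that make S1P, showed no difference past the spread of the libraries. Sphk2 (ENSMUSG00000057342.15, chromosome 7, 45709467 to 45718002, minus strand) had 22.7, 26.4 and 28.7 CPM in CTRL 1 to 3 against 26.8, 24.3 and 26.2 CPM in RbpjΔEC 1 to 3. All RbpjΔEC values lay inside the CTRL range, and the log2 fold change of -0.01 had a 95% interval of -0.23 to 0.21. Of its 4159 exonic bp, Sphk2 shares 539 with Dbp, a gene of the circadian clock output, and 373 with the ribosomal protein gene Rpl18, both on the opposite strand. The strand setting of the counting is not given in the sources used here, so reads in these stretches may not be told apart. Dbp had 27.6, 70.0 and 103.3 CPM in CTRL 1 to 3 against 32.7, 78.5 and 81.3 CPM in RbpjΔEC 1 to 3, the same order as Sphk2 among the CTRL libraries but not among the RbpjΔEC libraries.

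Sphk1 (ENSMUSG00000061878.16, whose gene version differs from the one in the annotation used for positions) was close to the floor. It had 30, 20 and 7 counts in CTRL 1 to 3 against 17, 9 and 17 in RbpjΔEC 1 to 3, or 0.445 ± 0.292 CPM and 0.339 ± 0.110 CPM (SD, n = 3 each). Its log2 fold change of -0.39 had a 95% interval of -1.69 to 0.92, and the estimate was 0.191 without CTRL 1. The coefficient of variation was 65.5% in CTRL and 32.5% in RbpjΔEC, against a counting error of 24.5%. The antisense gene Gm29292 overlaps it and had 17 counts over the 6 libraries. Sphk1 made up 1.55% ± 1.15 (SD, n = 3) of the summed kinase level per kb in CTRL and 1.13% ± 0.326 (SD, n = 3) in RbpjΔEC (exact permutation test, two-sided, p = 0.8).

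Spns2 (ENSMUSG00000040447.15, chromosome 11, 72451638 to 72489904, minus strand), through which ECs release S1P into plasma and lymph, had 61.2, 61.7 and 69.4 CPM in CTRL 1 to 3. It had 60.2, 55.3 and 73.3 CPM in RbpjΔEC 1 to 3, a range that encloses all CTRL values. Spns2 had a log2 fold change of -0.03, with a 95% interval of -0.25 to 0.20. Spns2 shares 131 exonic bp with Mybbp1a on the opposite strand, which had 98.3 ± 4.04 CPM in CTRL against 90.1 ± 5.29 CPM in RbpjΔEC (SD, n = 3 each).

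Apom (ENSMUSG00000024391.7, chromosome 17, 35128997 to 35132050, minus strand), the S1P carrier made mainly in liver and kidney tubules, had 10, 23 and 15 counts in CTRL 1 to 3 against 9, 25 and 41 in RbpjΔEC 1 to 3. The RbpjΔEC libraries included both the lowest and the highest value, and the log2 fold change of 0.72 had a 95% interval of -0.57 to 2.01 (adjusted p = 0.563, edgeR QL with Benjamini-Hochberg). It was 0.119 without RbpjΔEC 3. The 8 proximal tubule markers, Lrp2 and Slc34a1 among them, summed to 59.6, 95.1 and 152.4 CPM in CTRL 1 to 3 against 104.5, 116.4 and 411.2 CPM in RbpjΔEC 1 to 3. RbpjΔEC 3 was the highest of all 6 libraries in both Apom and this sum, as it was in the summed macrophage markers (14.2 to 14.6 CPM in CTRL and 23.6 to 27.8 CPM in RbpjΔEC). That list went both ways, since Cd68 had 9.97 ± 2.71 CPM in CTRL against 24.05 ± 1.70 CPM in RbpjΔEC (SD, n = 3 each) and the other 5 markers, Csf1r and Lyz2 among them, had lower means in RbpjΔEC. Within RbpjΔEC, library 3 was also highest in the glomerular endothelial, distal nephron, mural, stroma, lymphocyte, and erythroid and platelet sums. In CTRL, Apom was highest in library 2 and the tubule sum in library 3. Apom was lowest in RbpjΔEC 1, whereas the tubule sum was lowest in CTRL 1. The part of tubule or other cells in the Apom values was not tested.

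Plpp1 and Plpp3, the surface phosphatases, were the most abundant genes of the pathway. Plpp1 (ENSMUSG00000021759.14, chromosome 13, 112800792 to 112867894, plus strand) had 1079.9, 937 and 1047 CPM in CTRL 1 to 3 against 858, 880.2 and 865 CPM in RbpjΔEC 1 to 3. Every RbpjΔEC library lay below every CTRL library, and the RbpjΔEC libraries were close together (coefficient of variation 1.32%, against 7.36% in CTRL). Its log2 fold change was -0.24 (standard error 0.0753, 95% interval -0.40 to -0.07), with the smallest unadjusted p among the 10 genes and a Benjamini-Hochberg adjusted p of 0.138 by edgeR QL. Without CTRL 2, the CTRL library with the lowest Plpp1, the log2 fold change was -0.30 and the Benjamini-Hochberg adjusted p by edgeR QL was 0.0467, the lowest of 14 alternatives, of which the highest was 0.888. Plpp1 shares 452 exonic bp with Mtrex on the opposite strand, which had 74.5 ± 4.61 CPM in CTRL against 71.8 ± 4.53 CPM in RbpjΔEC (SD, n = 3 each).

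Plpp3 (ENSMUSG00000028517.8, chromosome 4, 105157347 to 105232764, plus strand), a phosphatase gene well known from arterial endothelium under steady flow, had 2172, 2033 and 1744 CPM in CTRL 1 to 3. In RbpjΔEC 1 to 3 it had 1834, 1762 and 1605 CPM, of which the first and second lay above CTRL 3. Its log2 fold change of -0.19 had a 95% interval of -0.40 to 0.01 (adjusted p = 0.307, edgeR QL with Benjamini-Hochberg). The estimates for Plpp1 and Plpp3 were of the size of the median of the pan-endothelial markers, which was -0.18 over 8 genes. Of these, 0 passed the adjusted threshold in edgeR and 3 (Kdr, Emcn and Eng, all lower) did in DESeq2. Egfl7 went the other way, with a log2 fold change of 0.22. Kdr, at 5994 ± 308 CPM (SD, n = 3) in CTRL, was the largest part of the sum of the 8. The median of the 8 arterial endothelial markers was -0.59, with 7 genes below 0 and 1 above. When the libraries were scaled to the summed pan-endothelial markers instead, an alternative chosen after seeing the data under which the median log2 fold change of all genes was 0.22 in place of 0.01, the log2 fold change was -0.02 for Plpp1, 0.01 for Plpp3, -0.24 for S1pr1, -0.76 for S1pr3 and 0.51 for S1pr2. Under that scaling 0 of the 10 genes and 1331 of the 18438 tested genes passed, 93.9% of the latter higher in RbpjΔEC.

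Sgpl1 (ENSMUSG00000020097.14, chromosome 10, 61098642 to 61147703, minus strand), the lyase that ends S1P signaling inside cells, had 27.4, 25.03 and 24.98 CPM in CTRL 1 to 3 against 24.8, 24.5 and 23.1 CPM in RbpjΔEC 1 to 3. The groups did not overlap, but RbpjΔEC 1 lay only just below CTRL 3. The log2 fold change was -0.10 (95% interval -0.29 to 0.09, adjusted p = 0.596, edgeR QL with Benjamini-Hochberg).

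**Figure D4:**
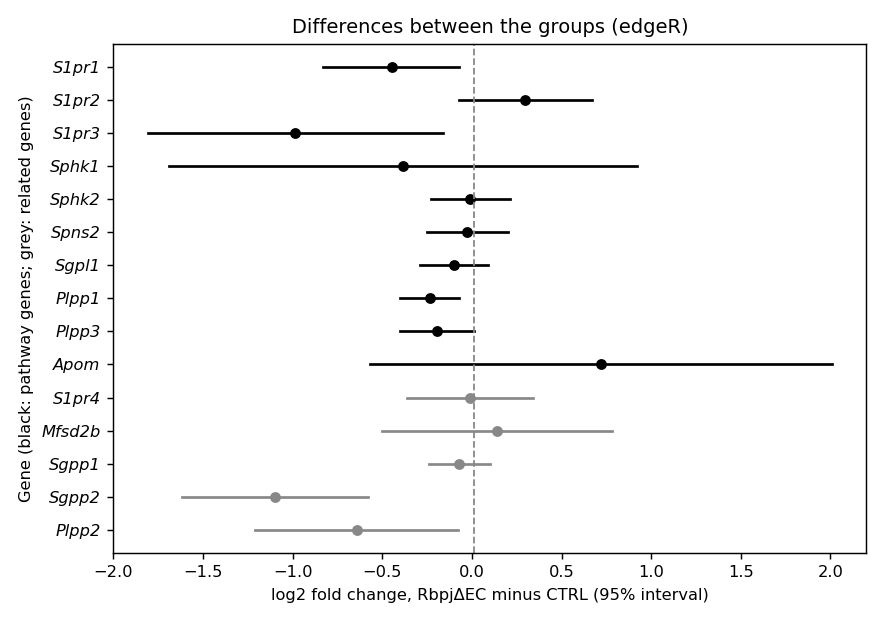
Log2 fold change of RbpjΔEC over CTRL (points) with its 95% interval (lines) from the edgeR QL fit on 3 libraries per group, for the 10 pathway genes (black) and 5 related genes (grey); the dashed line is the median of all tested genes. The intervals of S1pr1, S1pr3, Plpp1, Sgpp2 and Plpp2 lie below 0, and those of Sphk1 and Apom are the widest among the pathway genes.

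Other genes of S1P handling were taken from a list of 6. Of these 5 were tested and 0 passed the adjusted threshold in edgeR, where 1.13% of all tested genes did. The intracellular S1P phosphatase gene Sgpp2 had 4.94, 4.10 and 3.53 CPM in CTRL 1 to 3 against 2.34, 1.86 and 1.65 CPM in RbpjΔEC 1 to 3, with no overlap. Its log2 fold change was -1.10 (standard error 0.238), with a Benjamini-Hochberg adjusted p of 0.0502 by edgeR QL and 0.00710 from DESeq2's Wald test. It was the gene of the pathway nearest to the threshold. With the replicate number as a block the adjusted p of Sgpp2 from edgeR was 0.0415, although the numbers were not found to pair the mice, and over all alternatives in edgeR or DESeq2 it ranged from 0.00213 to 0.186. Its more abundant relative Sgpp1 had 151.3 ± 4.18 CPM in CTRL against 144.1 ± 14.8 CPM in RbpjΔEC (SD, n = 3 each), within the spread of the libraries. The surface phosphatase gene Plpp2 had 2.55 ± 0.422 CPM in CTRL against 1.63 ± 0.212 CPM in RbpjΔEC (SD, n = 3 each), a log2 fold change of -0.64 with a Benjamini-Hochberg adjusted p of 0.223 by edgeR QL. Mfsd2b, the S1P exporter of red cells and platelets, had 2.32 ± 0.797 CPM in CTRL against 2.55 ± 0.336 CPM in RbpjΔEC (SD, n = 3 each), and the groups overlapped.

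The supply of sphingosine was followed through 31 genes of ceramide and sphingosine metabolism, 26 of them tested. None passed the adjusted threshold of edgeR's test, where 1.13% of all tested genes did, and at an unadjusted p under 0.05 there were 5 lower and 2 higher, beside 8.62% and 8.88% of all tested genes. Their median log2 fold change was -0.12, with 20 genes below 0 and 6 above. Asah1, the lysosomal ceramidase that frees sphingosine, had 118.4, 107.3 and 133.7 CPM in CTRL 1 to 3 against 103.0, 93.6 and 96.5 CPM in RbpjΔEC 1 to 3. Its log2 fold change of -0.29 had a Benjamini-Hochberg adjusted p of 0.111 by edgeR QL, which was 0.0344 without CTRL 2 and between 0.0152 and 0.550 over all alternatives. The sphingomyelinase gene Smpd2 had a log2 fold change of 0.38 and Ormdl3, an inhibitor of the first step of sphingolipid synthesis, one of -0.32, with adjusted p of 0.122 and 0.196 from the same edgeR test. Over all alternatives in edgeR or DESeq2 the adjusted p was between 0.0302 (scaled to the pan-endothelial markers) and 0.367 for Smpd2, which also passed with no low-count filter, and between 0.154 and 0.579 for Ormdl3.

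Of 14 genes that couple or switch off the receptors, all were tested. In edgeR 0 passed the adjusted threshold, where 1.13% of all tested genes did. At an unadjusted p under 0.05, 8 were lower and 1 higher (8.62% and 8.88% of all tested genes), and the median log2 fold change was -0.19 with 11 genes below 0. The small GTPase genes Rhoa and Rac1, through which S1P receptors act on the cytoskeleton, had log2 fold changes of -0.29 and -0.31, with Benjamini-Hochberg adjusted p of 0.0751 and 0.0803 by edgeR QL. Rhoa had 317.5, 283.3 and 319.1 CPM in CTRL 1 to 3 against 250.7, 258.8 and 242.1 CPM in RbpjΔEC 1 to 3, and Rac1 likewise had no overlap. Both passed in DESeq2's Wald test (adjusted p of 0.0279 and 0.0299), and both passed without CTRL 2 by edgeR QL (Benjamini-Hochberg adjusted p of 0.0254 and 0.0240). Scaled to the pan-endothelial markers their log2 fold changes were -0.077 and -0.096, and neither passed, with adjusted p from edgeR of 0.513 and 0.433, the highest of their alternatives. Gnai1, which encodes an inhibitory G protein subunit of the kind that S1pr1 uses, had 8.12 ± 0.562 CPM in CTRL against 5.31 ± 0.760 CPM in RbpjΔEC (SD, n = 3 each), with a Benjamini-Hochberg adjusted p of 0.0907 by edgeR QL, which was 0.0312 with no low-count filter and up to 0.321 under the other alternatives. Cd69, whose protein removes S1pr1 from the cell surface and which was singled out after its values were seen, had 0.777 ± 0.176 CPM in CTRL against 1.54 ± 0.345 CPM in RbpjΔEC (SD, n = 3 each), with no overlap and an adjusted p of 0.162 from the same edgeR test.

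Lysophosphatidic acid, the other lipid that the Plpp phosphatases inactivate, was followed through 7 genes. Of these 4 were tested and 0 passed the adjusted threshold in edgeR, where 1.13% of all tested genes did. The receptor gene Lpar6 had 42.6, 46.2 and 57.5 CPM in CTRL 1 to 3 against 60.0, 63.6 and 56.5 CPM in RbpjΔEC 1 to 3, with RbpjΔEC 3 below CTRL 3. Its log2 fold change was 0.30, with a Benjamini-Hochberg adjusted p of 0.178 by edgeR QL. The adjusted p of Lpar6 from edgeR was 0.0192 with no low-count filter and 0.0228 when scaled to the pan-endothelial markers, and it reached 0.481 among the other alternatives. Lpar4 had 13.7 ± 4.71 CPM in CTRL against 12.6 ± 2.46 CPM in RbpjΔEC (SD, n = 3 each), and Lpar2 had 0.507 ± 0.442 and 0.806 ± 0.293 CPM, both with overlapping groups. Lpar1, Lpar3 and Lpar5 were below the filter on low counts.

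**Figure D5:**
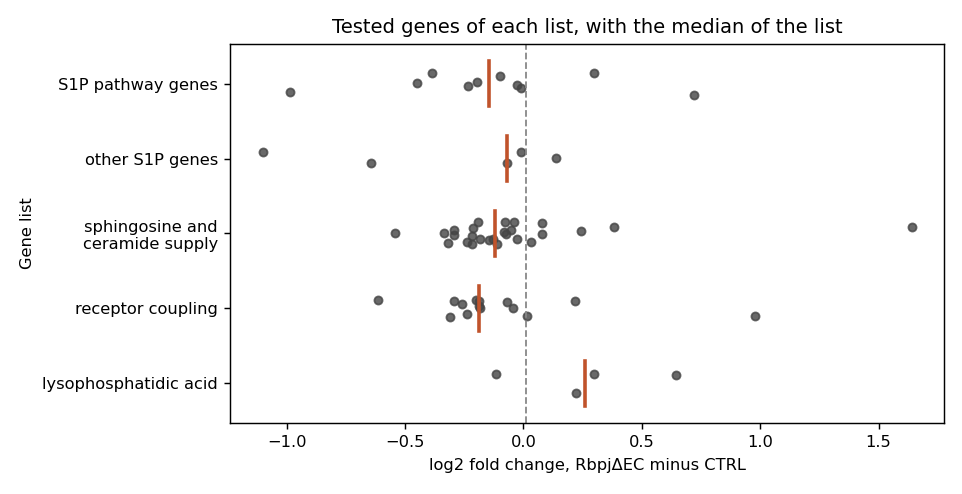
Log2 fold change of RbpjΔEC over CTRL for each tested gene (points) of the S1P pathway and of 4 related gene lists, with the median of each list (orange bar) and of all tested genes (dashed line). The medians are -0.15, -0.07, -0.12, -0.19 and 0.26 from top to bottom, and 0 of the genes shown passed the adjusted threshold in edgeR, while S1pr1, Sgpp2, Rhoa and Rac1 did in DESeq2.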

How the data were processed

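RNA of sorted kidney ECs from 3 CTRL and 3 RbpjΔEC mice was measured with 1 stranded total RNA library per mouse, sequenced in a common run. The authors aligned the reads with nf-core/rnaseq (version 1.4.2; STAR 2.6.1d and featureCounts of Subread 1.6.4 in the submitters' processing notes) to GRCm38.p6 with GENCODE M25 and deposited raw counts per gene, without normalization.

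TMM factors, CPM and quasi-likelihood (QL) tests came from edgeR 4.0.16 under R 4.3.3 (filterByExpr, robust glmQLFit, glmQLFTest) on all 18438 genes kept, with Benjamini-Hochberg adjustment over all of them and a threshold of 0.05. Standard errors and 95% intervals came from the quasi-likelihood F. DESeq2 1.42.0 was an alternative. The fit was tested on simulated data. Positions and exonic lengths came from GENCODE M21 (GRCm38), which holds 55141 of the 55401 genes and the same version of 9 of the 10 pathway genes. No 2 libraries had identical counts. Counts were found on 33764 genes in CTRL 1 and on 25629 to 26785 elsewhere.

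The pathway genes, the related lists and the marker lists were chosen with earlier results of these data known. Named were the 10 genes, the other S1P genes, per related list the 3 of smallest p, marker genes and overlapping genes. Correlations of the deviations of same-numbered CTRL and RbpjΔEC libraries were 0.0461, -0.0210 and 0.0169, so the replicate numbers were not treated as pairs. Protein sequences were not used here.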

Additional observations from a re-analysis of the deposited data

How the results depend on the processing

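Of the 10 pathway genes, 0 passed in edgeR's quasi-likelihood test, and this number was 1 (S1pr1) with DESeq2's Wald test, 3 (S1pr1, S1pr3 and Plpp1) with no low-count filter, and between 0 and 2 without 1 library in turn, all lower in RbpjΔEC. The number was 0 without robust estimation, with DESeq2 size factors, with library size only, with a minimum mean of 1 CPM and with the replicate block. Of the related genes, 0 passed in edgeR's test, 3 with DESeq2 (all lower), 8 with no low-count filter (2 higher and 6 lower), 1 with the replicate number as a block (Sgpp2, lower, log2 fold change -1.10), 3 when scaled to the pan-endothelial markers (2 higher and 1 lower, where 1250 of all genes were called higher and 81 lower), and between 0 and 3 without 1 library in turn, all lower. Over all 18438 tested genes the number of calls was 209, with 344 under the replicate block and 1331 when scaled to the pan-endothelial markers. It was 1436 of 38324 genes with no low-count filter and 584 of 38324 with DESeq2. Without 1 library in turn it lay between 21 of 19131 (without RbpjΔEC 1) and 700 of 19154 (without CTRL 2), with 521 of 19091 without RbpjΔEC 3. Of the 209 calls 50.7% were higher, against 66.0% with library size only, 93.9% when scaled to the pan-endothelial markers and between 29.2% and 57.3% without 1 library in turn. The causes were not tested.

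With library size only the log2 fold change was 0.032 for Sphk2, 0.016 for Spns2 and 0.031 for S1pr4. Scaled to the pan-endothelial markers it was 0.200 for Sphk2, 0.189 for Spns2, 0.113 for Sgpl1, 0.014 for Plpp3, 0.139 for Sgpp1, 0.110 for Lpar4, 0.200 for S1pr4 and 0.159 for Rbpj. Without 1 library in turn it ranged from -0.779 to 0.191 for Sphk1, -0.102 to 0.065 for Sphk2, -0.150 to 0.058 for Spns2, -0.091 to 0.106 for S1pr4, -0.126 to 0.296 for Mfsd2b, -0.354 to 0.154 for Lpar4 and -0.089 to 0.001 for Rbpj. The difference in the Sphk1 share of the kinase level was -0.429 percentage points and ranged from -0.956 to 0.188 without 1 library in turn, and that in the S1pr1 share of the receptor level ranged from -1.55 to -0.542. Where a group is left with 2 libraries, they are assumed to vary as the others do. Sphk1 and Apom had at most 30 and 41 counts per library, and their coefficients of variation between mice (32.5% to 65.5% and 32.6% to 67.8%) exceeded the counting errors of 24.5% and 22.1%.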
